A study of Mus musculus with 12 samples.

Results

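The receptor tyrosine kinases described here were chosen by symbol as the receptors for mitogens and related growth factors that neural stem cells (NSCs) can use: *Egfr*, *Erbb2*, *Erbb3* and *Erbb4* of the ErbB family, *Fgfr1*, *Fgfr2* and *Fgfr3* of the fibroblast growth factor receptors, and *Met*, *Kit* and *Ntrk2*. They are 10 of the 45792 genes in the deposited tables, and all 10 passed the filter on low counts among 15706 genes in all. RNA was sequenced from primary forebrain NSCs of newborn mice, grown in serum-free medium with EGF and FGF. The 3 groups of 4 cultures were WT (C57BL/6J), *Ncf1*-/-, and *Ncf1*-/- given mouse recombinant Igfbp2 at 100 ng/ml per the labels (the methods name a lower dose). According to the labels, WT and the first *Ncf1*-/- group were without treatment, while the methods give vehicle for that *Ncf1*-/- group. *Ncf1* encodes a cytosolic subunit of the NADPH oxidase Nox2, and the knockout mice were backcrossed to C57BL/6J. Igfbp2, an insulin-like growth factor binding protein, was added 48 h after plating and RNA was taken 48 h later. NSCs of each pup were kept as separate cultures, and the methods state that each *Ncf1*-/- animal gave a vehicle-treated and an Igfbp2-treated culture.

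A receptor tyrosine kinase is a membrane protein that pairs with a second receptor when its ligand binds, phosphorylates tyrosines on its partner and so recruits adaptors such as Grb2 and Shc, which pass the signal to Ras, Raf, Mek and Erk. Erk then raises the transcription of a set of immediate early genes and of feedback inhibitors, among them the Sprouty and Dusp families. In forebrain NSCs, Egfr and the FGF receptors carry the response to the mitogens of the culture medium. Erbb4 and Erbb3 bind neuregulins, and Erbb2 has no known ligand of its own and acts as their partner. Ntrk2 (TrkB) binds brain-derived neurotrophic factor (Bdnf), Met binds hepatocyte growth factor (Hgf), and Kit binds stem cell factor (Kitl).

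The libraries held 18201622 to 34086554 estimated read counts. *Ncf1* had 2 to 7 counts in WT, 2 to 4 in vehicle-treated and 1 in each Igfbp2-treated library, too few to check the genotype. The summed CPM (counts scaled to a common library size with TMM factors) of 4 Y-linked genes was 107 to 118 in WT replicates 1 to 3 and 105 to 116 in all vehicle-treated libraries, but 6.46 in WT replicate 4 and 7.79 to 9.18 in all Igfbp2-treated libraries. Igfbp2 treatment and Y-linked expression, and with it the sex of the cultures, therefore cannot be told apart, and the libraries go against the stated pairing by animal. A second sample sheet in the study's supplementary software lists WT replicate 4 as treated with apocynin, an inhibitor of the oxidase, so results against WT are also given without it. WT replicate 3, the deepest library, stood apart from the other WT libraries in cell type markers as well.

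The markers of NSCs were present in every library, with sums of 3565 to 9503 CPM in WT, 8597 to 9214 in vehicle-treated and 8731 to 9420 in Igfbp2-treated cultures. Single markers moved in both directions: 6 of the 9 were lower in vehicle-treated than in WT cultures (*Sox2*, *Sox9*, *Msi1*, *Prom1*, *Pax6* and *Slc1a3*, with log2 fold changes from -1.34 to -0.43), while *Nes* (1.92) and *Fabp7* (0.96) were higher. Markers of myelinating oligodendrocytes summed to 1486 to 8963 CPM in WT, with the lowest value in replicate 3, and to 194 to 249 and 209 to 283 CPM in the 2 *Ncf1*-/- groups. Of these 7 markers, 6 fell and none rose between WT and vehicle-treated *Ncf1*-/- cultures. Astrocyte markers summed to 5829.9 to 11396 CPM in WT against 2272 to 2812 and 2425 to 3350.2 CPM, with 5 of 6 lower in vehicle-treated cultures. The other, *Aldh1l1*, was not called there (log2 fold change 0.65, adjusted p = 0.232 by edgeR). It was higher in Igfbp2-treated than in WT cultures (1.26, adjusted p = 0.0277 by edgeR). Oligodendrocyte precursor markers summed to 2636 to 4072 against 1985 to 2149 and 2023 to 2101 CPM, with 4 of 6 lower and the other 2, *Olig1* (log2 fold change 0.87) and *Olig2* (0.29), higher. Microglial markers summed to at most 1.45 CPM in any library, and *Aif1*, *Cx3cr1* and *Ptprc* had no count in the Igfbp2-treated libraries. In bulk cultures, fewer cells of a type and less RNA per cell cannot be told apart, and the part that these shifts in markers play in the receptor levels was not tested.

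The comparison of vehicle-treated *Ncf1*-/- with WT NSCs bears on what loss of *Ncf1* does to the transcriptome, but not on that alone. These groups also differed in cell type markers, and WT replicate 4 stood apart in Y-linked expression and in its listing as apocynin-treated. *Egfr* rose 2.62-fold, while *Erbb3*, *Erbb4*, *Fgfr2*, *Fgfr3*, *Kit* and *Ntrk2* fell to between 0.216 and 0.444 of their WT level. *Erbb2*, *Fgfr1* and *Met* did not pass the test. Thus 7 of 10 receptors were called at an edgeR adjusted p under 0.05 (quasi-likelihood test, Benjamini-Hochberg over all genes), beside 57.2% of all genes tested, and 6 of 10 were lower, beside 28.2% of all genes, and 1 was higher, beside 28.9%. Of the 10 fitted values, 1 lay above 0, beside 51.0% of all genes. The groups did not overlap for the same 7 receptors, beside 51.2% of all genes. The median log2 fold change of the receptors was -1.30, beside 0.02 for all genes tested. Without WT replicate 4 the test again called 7 receptors (1 higher, 6 lower), and likewise without WT replicate 3. Without WT replicate 1 it called 9, with *Erbb2* and *Fgfr1* among the lower ones.

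**Figure D1:**
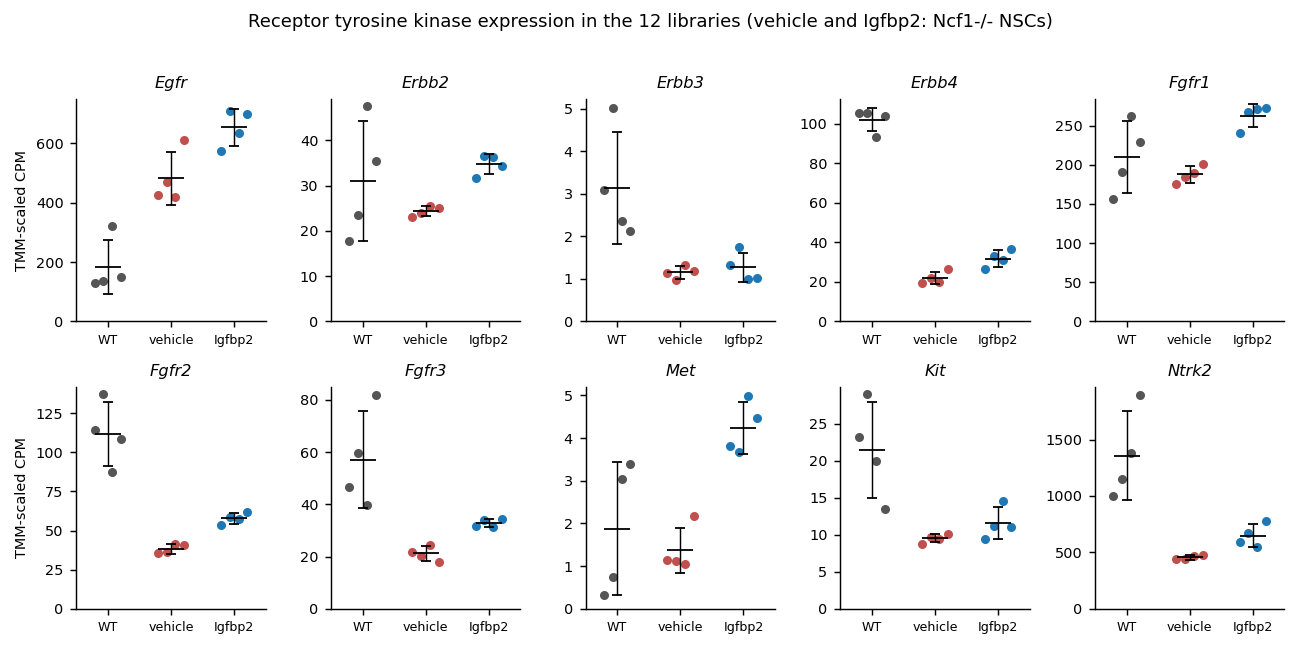
Expression of the 10 receptors as TMM-scaled CPM (vertical axes, linear, each from 0) in the 4 libraries of each group (points), with the mean and SD (horizontal and vertical bars). *Egfr* lies higher in all *Ncf1*-/- libraries than in any WT library, and *Erbb4*, *Fgfr2* and *Ntrk2* lie lower in all of them.

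*Egfr* (ENSMUSG00000020122, GRCm38 chromosome 11, 16752203 to 16918158, + strand) encodes the receptor for EGF and transforming growth factor alpha. It measured 129.8, 135, 322 and 148 CPM in WT replicates 1 to 4, 426, 469.6, 419 and 613 CPM in vehicle-treated, and 573, 711, 634 and 698 CPM in Igfbp2-treated *Ncf1*-/- replicates 1 to 4. Each *Ncf1*-/- library was above each WT library, and WT replicate 3 was more than 2-fold above the other WT cultures. The log2 fold change of vehicle-treated *Ncf1*-/- against WT was 1.39 (SE 0.26, adjusted p = 0.000459 by edgeR). It was 1.81 without WT replicate 3 and 1.28 without WT replicate 4. *Egfr* was the only receptor of the 10 that rose in this comparison.

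*Erbb4* (ENSMUSG00000062209, chromosome 1, 68032186 to 69108059, − strand), a neuregulin receptor, moved in the opposite direction. It measured 106, 105, 93.4 and 104 CPM in WT, 19.6, 22.1, 20.2 and 26.5 CPM in vehicle-treated and 26.3, 33.0, 31.0 and 36.9 CPM in Igfbp2-treated cultures. The WT and *Ncf1*-/- libraries were far apart, and WT replicate 3 was here the lowest of its group. The log2 fold change against WT was -2.21 (SE 0.12, adjusted p = 3.81e-08 by edgeR), the largest decrease among the 10 receptors, and every alternative setting tried kept this call.

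The promoters of *Egfr* and *Erbb4* are shown because these 2 receptors of the same family changed most in opposite directions. The windows run from 250 bases before to 50 bases after the RefSeq transcription start on GRCm38.p6, 5′ to 3′ on the strand of the gene, at chr11:16751953-16752252 (+) for *Egfr* and chr1:69108010-69108309 (−) for *Erbb4*. Capitals mark a match to the GC box (GGGCGG on either strand).
Egfr: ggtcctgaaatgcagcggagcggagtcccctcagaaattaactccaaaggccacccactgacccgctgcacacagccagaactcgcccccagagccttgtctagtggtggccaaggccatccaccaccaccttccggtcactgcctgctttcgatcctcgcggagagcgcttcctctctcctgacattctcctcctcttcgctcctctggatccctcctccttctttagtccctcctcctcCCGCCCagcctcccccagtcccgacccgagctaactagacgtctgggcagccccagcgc
Erbb4: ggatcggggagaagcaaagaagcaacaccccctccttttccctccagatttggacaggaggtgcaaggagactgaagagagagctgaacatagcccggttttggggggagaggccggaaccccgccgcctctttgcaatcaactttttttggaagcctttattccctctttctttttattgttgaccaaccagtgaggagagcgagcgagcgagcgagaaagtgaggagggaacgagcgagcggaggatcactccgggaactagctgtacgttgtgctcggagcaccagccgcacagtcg
The *Egfr* window held 1 GC box and 15 CpG at 62.3% G and C, and the *Erbb4* window held no GC box and 17 CpG at 55.3% G and C. Of the 32851 RefSeq windows of the same length, 35.7% held a GC box, and the median window had 7 CpG and 52.7% G and C. Neither window matched the TATA box (TATAAA, in 13.6% of all windows), the cAMP response element (TGACGTCA, 1.79%), the E-box (CACGTG, 7.15%) or the Ets core (CCGGAAGT, 3.89%), with both strands searched. RefSeq windows matched 8 of the 10 receptors, leaving *Erbb3* and *Fgfr1*. Those of *Fgfr3*, *Met*, *Kit* and *Ntrk2*, like that of *Egfr*, held at least 1 GC box, and those of *Erbb2*, *Erbb4* and *Fgfr2* held none, so receptors that fell were found with and without it.

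*Erbb3* (ENSMUSG00000018166, chromosome 10, 128567523 to 128589652, − strand), a neuregulin receptor with little kinase activity of its own, was rare in every group. It measured 3.09, 5.02, 2.35 and 2.12 CPM in WT, 1.13, 0.968, 1.32 and 1.19 CPM in vehicle-treated and 1.33, 1.74, 1.004 and 1.03 CPM in Igfbp2-treated cultures, or 20 to 93 counts a library. All WT libraries were above all *Ncf1*-/- libraries. The log2 fold change against WT was -1.43 (SE 0.28, adjusted p = 0.000757 by edgeR). *Erbb2* (ENSMUSG00000062312, chromosome 11, 98412470 to 98437716, + strand), the partner receptor, measured 17.7, 23.5, 47.6 and 35.4 CPM in WT against 23.0, 23.9, 25.6 and 25.0 CPM in vehicle-treated cultures. The vehicle-treated values lay within the WT range, and the log2 fold change of -0.35 had an edgeR adjusted p of 0.193. Without WT replicate 3 it was -0.06, whereas without WT replicate 1 *Erbb2* was called lower at -0.55 (edgeR adjusted p = 0.0163). *Erbb2* shares exonic bases with *Mien1* on the other strand, and the counting is not stated to use strand.

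Among the FGF receptors, *Fgfr2* and *Fgfr3* fell while *Fgfr1* did not pass the test. *Fgfr2* (ENSMUSG00000030849, chromosome 7, 130162451 to 133123350, − strand) measured 114, 137, 87.1 and 109 CPM in WT, 35.4, 36.1, 41.5 and 40.9 CPM in vehicle-treated and 53.3, 58.8, 57.5 and 61.7 CPM in Igfbp2-treated cultures. The 3 groups did not overlap, with the Igfbp2-treated libraries between the others, and the log2 fold change of vehicle-treated against WT was -1.54 (SE 0.12, adjusted p = 4.75e-07 by edgeR). *Fgfr3* (ENSMUSG00000054252, chromosome 5, 33721674 to 33737068, + strand) measured 46.8, 59.9, 39.6 and 82.0 CPM in WT, 21.9, 20.4, 24.5 and 17.9 CPM in vehicle-treated and 31.7, 34.2, 31.4 and 34.3 CPM in Igfbp2-treated cultures. It showed the same order of the groups without overlap, with a log2 fold change of -1.43 (SE 0.18, adjusted p = 2.45e-05 by edgeR).

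*Fgfr1* (ENSMUSG00000031565, chromosome 8, 25513654 to 25575718, + strand), a receptor for several FGFs, measured 157, 191, 263 and 229 CPM in WT, 176, 184, 189.6 and 201 CPM in vehicle-treated and 241, 267, 271 and 272 CPM in Igfbp2-treated cultures. The vehicle-treated values again lay within the WT range, and the log2 fold change against WT was -0.16 (SE 0.13, adjusted p = 0.305 by edgeR), which became 0.01 when library totals replaced the TMM factors. Without WT replicate 1 it was called lower at -0.28 (edgeR adjusted p = 0.0403). Annotated exons of the 3 FGF receptors overlap those of other genes. *Fgfr1* overlaps the antisense *Gm16159*, *Fgfr2* overlaps *Ctbp2* on the same strand, and *Fgfr3* overlaps *G630022F23Rik* on the other strand.

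*Ntrk2* (ENSMUSG00000055254, chromosome 13, 58806569 to 59133970, + strand), the Bdnf receptor, had the highest CPM of the 10 receptors in WT cultures, with 1003, 1149, 1384 and 1897 CPM. It measured 439, 437, 471 and 473 CPM in vehicle-treated and 588, 673, 548 and 781 CPM in Igfbp2-treated cultures, again with 3 groups that did not overlap. The log2 fold change of vehicle-treated against WT was -1.58 (SE 0.18, adjusted p = 8.43e-06 by edgeR). *Kit* (ENSMUSG00000005672, chromosome 5, 75574916 to 75656722, + strand), the stem cell factor receptor, measured 23.2, 29.0, 20.0 and 13.4 CPM in WT, 8.76, 9.72, 9.45 and 10.04 CPM in vehicle-treated and 9.47, 11.1, 14.6 and 11.05 CPM in Igfbp2-treated cultures. All vehicle-treated libraries were below all WT libraries, and the log2 fold change was -1.17 (SE 0.20, adjusted p = 0.000202 by edgeR).

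*Met* (ENSMUSG00000009376, chromosome 6, 17463800 to 17573980, + strand), the Hgf receptor, was near the lower limit of detection. It measured 0.318, 0.756, 3.04 and 3.40 CPM in WT, 1.13, 1.11, 1.06 and 2.16 CPM in vehicle-treated and 3.82, 3.67, 4.97 and 4.47 CPM in Igfbp2-treated cultures, or 7 to 106 counts a library. The WT libraries fell into a low and a high pair that spanned the vehicle-treated values, and the log2 fold change of -0.46 had an edgeR adjusted p of 0.477.

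**Figure D2:**
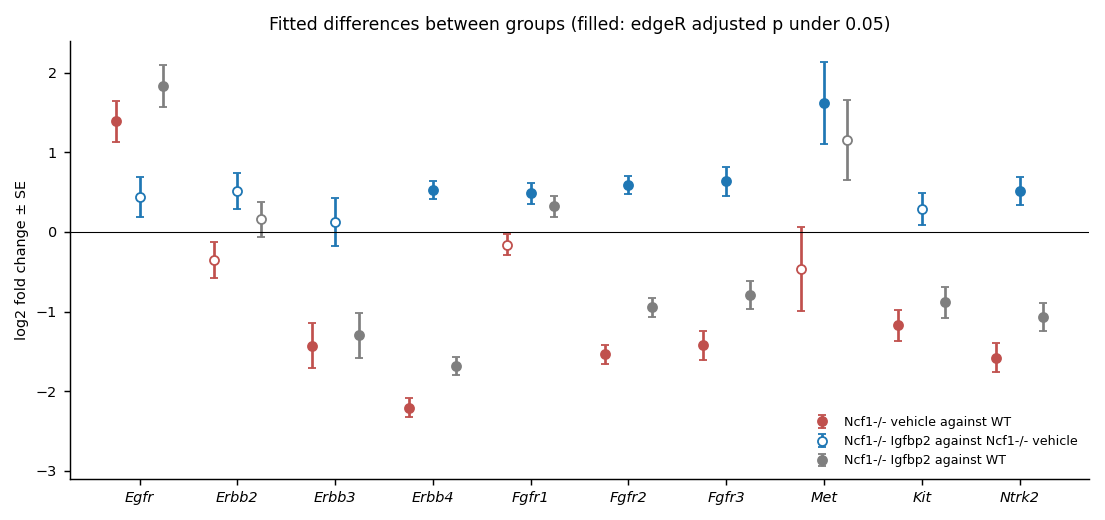
Fitted log2 fold changes with their standard errors (vertical axis) for the 10 receptors (horizontal axis) in the 3 comparisons, which are made among the same 12 libraries and so are not independent. Filled points passed an edgeR adjusted p under 0.05: *Egfr* is the only receptor above 0 among those called in vehicle-treated *Ncf1*-/- against WT cultures, and all values of Igfbp2 against vehicle lie above 0.

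Levels were compared between receptors as CPM per kilobase of effective transcript length, the length averaged over isoforms by RSEM. In WT cultures *Ntrk2* was highest at 197 ± 56.9 CPM per kilobase (SD, n = 4), and its range did not overlap that of *Fgfr1*, which came next with 59.2 ± 14.3. From *Fgfr1* through *Fgfr2* (37.2 ± 6.50), *Egfr* (33.0 ± 19.9) and *Fgfr3* (18.8 ± 6.25) to *Erbb4* (15.0 ± 1.32), each range overlapped the next in order. This overlap does not show that neighbours were alike, since the receptors were measured in the same libraries and were not tested against each other. *Fgfr1* was above *Fgfr2* within each WT library, with 44.7 against 39.4, 44.8 against 37.8, 64.5 against 25.0 and 50.3 against 28.4% of the FGF receptor sum. *Erbb2* (6.66 ± 2.97), *Kit* (4.81 ± 1.78), *Erbb3* (0.538 ± 0.226) and *Met* (0.530 ± 0.318) followed, with overlap between *Erbb2* and *Kit* and between *Erbb3* and *Met*.

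In vehicle-treated *Ncf1*-/- cultures *Egfr* came first with 86.8 ± 7.18 CPM per kilobase, above *Ntrk2* with 65.7 ± 2.93 and *Fgfr1* with 53.9 ± 2.12, and these ranges did not overlap. *Erbb4*, at 3.20 ± 0.335 CPM per kilobase, stood below *Erbb2* (5.43 ± 0.490), the reverse of their order in WT. In Igfbp2-treated cultures the order of the first 3 was the same, at 119 ± 11.4, 93.7 ± 15.0 and 75.4 ± 5.28 CPM per kilobase, but the ranges of *Egfr* and *Ntrk2*, and of *Ntrk2* and *Fgfr1*, overlapped. These values rest on the isoform lengths estimated by RSEM, which ranged from 5017 to 7027 bases for *Egfr* and from 1229 to 5352 bases for *Met* across libraries.

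The makeup of the ErbB family differed between the genotypes. *Egfr* made up 56.8% ± 10.5 (SD, n = 4) of the family's CPM per kilobase in WT, 90.7% ± 0.840 in vehicle-treated and 90.8% ± 0.882 in Igfbp2-treated cultures. *Erbb4* made up 30.1% ± 10.8 in WT, with the lowest share of 15.6% in replicate 3, and 3.37% ± 0.489 and 3.18% ± 0.381 in the *Ncf1*-/- groups. Both shares separated WT from all *Ncf1*-/- libraries, and those of the *Ncf1*-/- groups overlapped. The family's summed level was 55.1 ± 21.4 CPM per kilobase in WT, 95.6 ± 7.05 in vehicle-treated and 131 ± 11.9 in Igfbp2-treated cultures. The difference in this sum between the *Ncf1*-/- groups depended on the scaling. In mean TPM, *Egfr* had 24.9 in WT, 64.8 in vehicle-treated and 64.7 in Igfbp2-treated cultures. Structural RNA genes took 56.0 to 60.3% of all TPM in vehicle-treated, 62.1 to 72.3% in Igfbp2-treated and 59.8 to 66.8% in WT libraries. The larger share in Igfbp2-treated than in vehicle-treated libraries leaves less TPM for all other genes. How far this moved the TPM values of the receptors was not tested.

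For the FGF receptors, *Fgfr1* made up 51.1% ± 9.30 of the family in WT, 72.1% ± 1.45 in vehicle-treated and 71.3% ± 1.09 in Igfbp2-treated cultures. *Fgfr2* made up 32.6% ± 7.06, 17.9% ± 1.24 and 18.0% ± 0.765. In contrast to the ErbB family, the summed level of the FGF receptors was lower in vehicle-treated (74.8 ± 3.30 CPM per kilobase) than in WT cultures (115 ± 12.8). These ranges did not overlap. The sum was 106 ± 7.18 in Igfbp2-treated cultures, but its difference from vehicle-treated cultures depended on the scaling. In mean TPM, vehicle-treated and Igfbp2-treated cultures had 40.2 and 41.02 for *Fgfr1*, 10.02 and 10.28 for *Fgfr2*, and 5.56 and 6.13 for *Fgfr3*. No test was run on the shares.

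**Figure D3:**
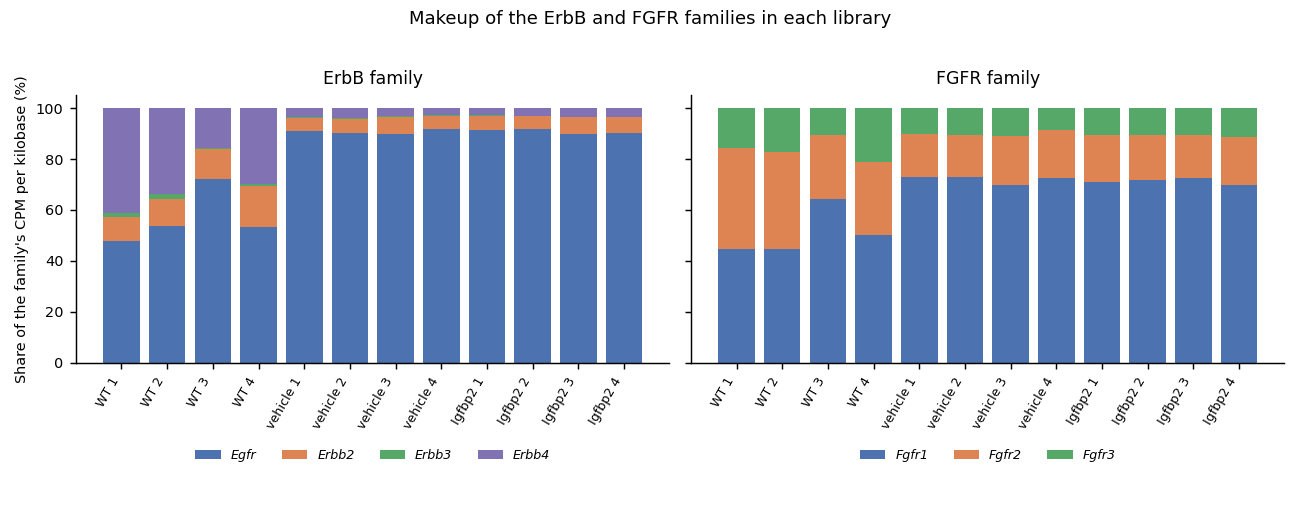
Share of each receptor in the summed CPM per kilobase of its family (vertical axis, percent) in each of the 12 libraries (bars). *Egfr* takes 48.0 to 72.04% of the ErbB family in WT and 89.8 to 91.7% in the *Ncf1*-/- libraries, in which *Erbb4* nearly vanishes from the bars.

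*Ntrk2* gives rise to a full-length receptor with a kinase domain and to a truncated form without it. The deposited tables list 2 *Ntrk2* transcripts, of 8744 bases (coding for 821 residues) and 6846 bases (476 residues) in GENCODE M21, and the share of the longer transcript follows from the abundance-weighted length that RSEM gives for the gene. This share was 11.3% ± 0.295 (SD, n = 4) in WT, 13.6% ± 0.438 in vehicle-treated and 12.4% ± 0.314 in Igfbp2-treated cultures. The 3 groups did not overlap, with ranges of 11.1 to 11.7%, 13.1 to 13.97% and 12.1 to 12.8%. In each of the 3 pairs of groups the exact permutation test (two-sided) gave p = 0.0286, the smallest that 4 against 4 libraries allow, and the same value after Benjamini-Hochberg adjustment over the 9 tests run on the transcripts. The shorter transcript was thus the main form in every library, and both transcripts had a lower level in vehicle-treated than in WT cultures (8.90 ± 0.142 against 22.3 ± 6.23 CPM per kilobase for the longer, 56.8 ± 2.81 against 175 ± 50.7 for the shorter). The lengths are those of GENCODE M21, which equalled the deposited length within 0.5 bases for 86.3% of 29712 genes with 1 transcript, and the share was examined after the gene's values had been seen.

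The comparison of Igfbp2-treated with vehicle-treated *Ncf1*-/- NSCs bears on what added Igfbp2 does to cells without *Ncf1*, but not on that alone. These groups were also fully apart in Y-linked expression (7.79 to 9.18 against 105 to 116 CPM). Igfbp2 treatment and the sex of the cultures therefore cannot be told apart in any result of this comparison. In what follows, "with Igfbp2" names the treated cultures only. With TMM scaling, *Fgfr1*, *Fgfr2*, *Fgfr3*, *Erbb4*, *Met* and *Ntrk2* rose, 6 of 10 receptors beside 25.0% of all genes tested (14.2% of all genes were higher), and none fell. All 10 fitted values were above 0, beside 54.4% of all genes, with a median of 0.51 on the log2 scale beside 0.04 for all genes. The groups did not overlap for 6 receptors, *Erbb2* among them and *Erbb4* not, beside 34.1% of all genes. These calls depended on the scaling, as did the split of all genes called, 2238 higher and 1685 lower with TMM factors but 648 and 5258 with library totals. When library totals replaced the TMM factors, the median of all genes tested moved to -0.23 and 1 receptor, *Fgfr2*, was called (log2 fold change 0.32, edgeR adjusted p = 0.0487), and with log2(TPM + 0.1) it moved to -0.42 and limma called 0 receptors, none of them with an unadjusted p under 0.05. Relative to the median of all genes, the median of the receptors was 0.47 higher with TMM factors, 0.47 higher with library totals and 0.43 higher with log2(TPM + 0.1), and each of the 10 receptors was above it on these 3 scales.

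**Figure D4:**
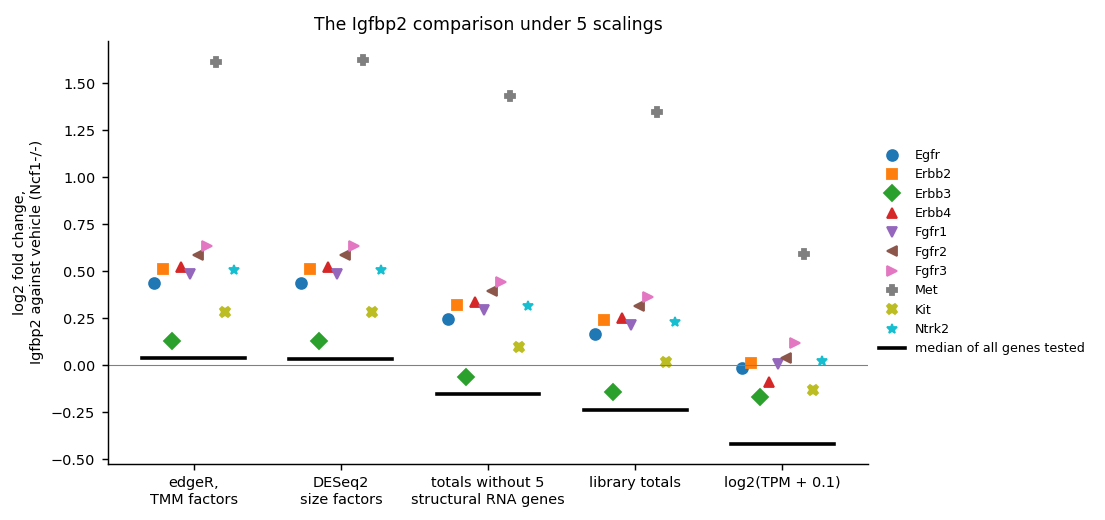
Log2 fold changes of Igfbp2-treated against vehicle-treated *Ncf1*-/- cultures for the 10 receptors (symbols) under 5 scalings of the same libraries, with the median of all genes tested under each (black bars). The receptors move down together with the median, from 0.04 with TMM factors to -0.42 with log2(TPM + 0.1), and stay above it.

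*Met* had the largest fitted difference, with 3.67 to 4.97 CPM in Igfbp2-treated against 1.06 to 2.16 CPM in vehicle-treated cultures and a log2 fold change of 1.62 (SE 0.52, adjusted p = 0.0373 by edgeR). It stayed above 0 in every alternative but was not called when any one of 7 of the 8 *Ncf1*-/- libraries was left out, the exception being vehicle-treated replicate 4, the highest of its group. *Fgfr2* rose by 0.59 (SE 0.12, adjusted p = 0.00485 by edgeR) and *Fgfr3* by 0.63 (SE 0.18, adjusted p = 0.0249 by edgeR) on the log2 scale. *Fgfr1* rose by 0.49 (SE 0.13, adjusted p = 0.0185 by edgeR). Its 4 Igfbp2-treated libraries, at 241 to 272 CPM, were all above the 4 vehicle-treated libraries, at 176 to 201 CPM. These calls differed in how far they rested on single libraries. *Fgfr2* was called with any one library left out, *Fgfr3* was lost when any one of 7 of the 8 *Ncf1*-/- libraries was left out (all but vehicle-treated replicate 3) and *Fgfr1* with any one of 5 of them, and over all alternatives the call was lost in 14 of 24 for *Fgfr3* and in 12 of 24 for *Fgfr1*.

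*Erbb4* rose by 0.52 on the log2 scale (SE 0.12, adjusted p = 0.00714 by edgeR), although the lowest Igfbp2-treated library (26.3 CPM) was just under the highest vehicle-treated one (26.5 CPM), and its fitted value with log2(TPM + 0.1) was -0.09. *Ntrk2* was at the threshold, with 0.51 (SE 0.18, adjusted p = 0.0495 by edgeR), and lost its call when any one *Ncf1*-/- library was left out. *Egfr* had a log2 fold change of 0.44 (SE 0.25, adjusted p = 0.216 by edgeR). Fitted over the 8 *Ncf1*-/- libraries alone it was called, at 0.39 (edgeR adjusted p = 0.0226) and, with the stated culture pair as a block, at 0.40 (edgeR adjusted p = 0.0103). *Erbb2*, at 31.7, 36.5, 36.3 and 34.4 CPM in Igfbp2-treated cultures, was not called over all 12 libraries (0.51, SE 0.22, adjusted p = 0.111 by edgeR). Over the 8 *Ncf1*-/- libraries alone it was called, at 0.47 (edgeR adjusted p = 0.000522) without the block and 0.46 (edgeR adjusted p = 0.0016) with it. Leaving WT replicate 3 out of the model, which changes the shared estimate of spread, also brought both genes past the threshold, with edgeR adjusted p-values of 0.0172 for *Egfr* and 0.0244 for *Erbb2*. *Kit* (0.29, SE 0.20, adjusted p = 0.306 by edgeR) and *Erbb3* (0.13, SE 0.30, adjusted p = 0.777 by edgeR) did not pass, and the fitted value of *Erbb3* was -0.14 with library totals.

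In Igfbp2-treated *Ncf1*-/- cultures set against WT, *Egfr* and *Fgfr1* were higher and *Erbb3*, *Erbb4*, *Fgfr2*, *Fgfr3*, *Kit* and *Ntrk2* were lower, 8 of 10 receptors beside 62.4% of all genes tested. The 6 that were lower stand beside 30.8% of all genes and the 2 that were higher beside 31.6%. The groups did not overlap for 7 receptors, beside 54.3% of all genes, and 4 of 10 fitted values were above 0, beside 49.7%. The comparison shares its libraries with the other 2. *Egfr* had a log2 fold change of 1.83 (SE 0.26, adjusted p = 5.36e-05 by edgeR), beside 1.39 for vehicle-treated against WT cultures, and *Erbb4* had -1.68 (SE 0.12, adjusted p = 1.58e-07 by edgeR), beside -2.21. With TMM factors, *Fgfr2* (-0.95), *Fgfr3* (-0.79), *Kit* (-0.89), *Ntrk2* (-1.07) and *Erbb3* (-1.30) were also nearer to 0 than in the first comparison. There they had -1.54, -1.43, -1.17, -1.58 and -1.43. This shift depended on the scaling. With log2(TPM + 0.1), the change from vehicle to Igfbp2 was 0.038 for *Fgfr2*, 0.12 for *Fgfr3* and 0.025 for *Ntrk2*. It was -0.087 for *Erbb4*, -0.13 for *Kit* and -0.17 for *Erbb3*, away from WT. None of these changes was called on that scale, on which the median of all genes tested was -0.42 for Igfbp2 against vehicle. With TMM factors, those of *Kit* and *Erbb3* were not called either. *Fgfr1* was called at 0.32 (SE 0.13, adjusted p = 0.0456 by edgeR) but kept this call in only 3 of 23 alternatives. Its edgeR adjusted p without WT replicate 4 was 0.0705. *Met*, at 1.15 (SE 0.50, adjusted p = 0.0607 by edgeR), was called without WT replicate 4 at 1.47 (edgeR adjusted p = 0.0247) and without WT replicate 3 at 1.55 (edgeR adjusted p = 0.0203). Without WT replicate 4 the test again called 8 receptors (2 higher, 6 lower), and without WT replicate 3 it called all 10 (4 higher, 6 lower). Y-linked expression was 7.79 to 9.18 CPM in the Igfbp2-treated libraries and 107 to 118 CPM in WT replicates 1 to 3. Only WT replicate 4, at 6.46 CPM, was low among the WT libraries. Without it, genotype, Igfbp2 treatment and the sex of the cultures cannot be told apart in this comparison.

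The ligands of these receptors were for the most part rare. Of 35 ligand genes listed (11 of the EGF family, 18 FGFs and 6 for Met, Kit and the Trk receptors), 12 passed the filter on low counts. *Tgfa*, a ligand of Egfr, measured 98.6, 102, 64.7 and 107 CPM in WT and 17.9, 19.5, 22.2 and 20.6 CPM in vehicle-treated cultures, and fell (-2.21, SE 0.14, adjusted p = 1.11e-07 by edgeR). It did not pass the test between the *Ncf1*-/- groups (0.07, SE 0.14, adjusted p = 0.762 by edgeR). *Kitl* went the other way, with 13.7, 11.8, 56.5 and 16.6 CPM in WT and 134, 136, 139 and 178 CPM in vehicle-treated cultures (2.56, SE 0.40, adjusted p = 0.00013 by edgeR), so that *Kitl* was higher and its receptor *Kit* lower in the same cultures. *Egf* itself was near 1 CPM, at 0.728 to 1.11 CPM in WT and 1.45 to 2.004 CPM in vehicle-treated cultures, and rose (0.89, SE 0.22, adjusted p = 0.00351 by edgeR). *Fgf1* fell (-0.56, SE 0.19, adjusted p = 0.025 by edgeR) but was not called without WT replicate 4. *Fgf2*, the basic FGF gene, ranged from 1.51 to 8.49 CPM in WT and from 3.01 to 3.95 CPM in vehicle-treated cultures and did not pass the test (-0.46, SE 0.44, adjusted p = 0.391 by edgeR).

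*Hbegf*, a ligand of Egfr and Erbb4, measured 30.5, 24.7, 40.0 and 20.2 CPM in Igfbp2-treated against 7.41, 8.71, 9.32 and 10.97 CPM in vehicle-treated and 9.87, 8.04, 7.23 and 15.1 CPM in WT cultures. Every Igfbp2-treated library was above all others. The log2 fold change against vehicle was 1.66 (SE 0.24, adjusted p = 0.00107 by edgeR), and it stayed above 0 in all 24 alternatives. *Egf* was lower than with vehicle, at 0.717 to 1.08 CPM (-0.92, SE 0.22, adjusted p = 0.0114 by edgeR), which overlaps the WT range. The FGF ligands and the ligands for Met, Kit and the Trk receptors had 0 of 5 tested genes called with edgeR, 0 with an unadjusted p under 0.05 and 0 with DESeq2. With limma on log2(TPM + 1) and on log2(TPM + 0.1), 1 of the 3 ligand genes for Met, Kit and the Trk receptors was called lower. Fitted over the 8 *Ncf1*-/- libraries alone, with or without the block, *Fgf1* was called lower and *Fgf2* higher (lowest edgeR adjusted p = 0.0354 and 0.0287).

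**Figure D5:**
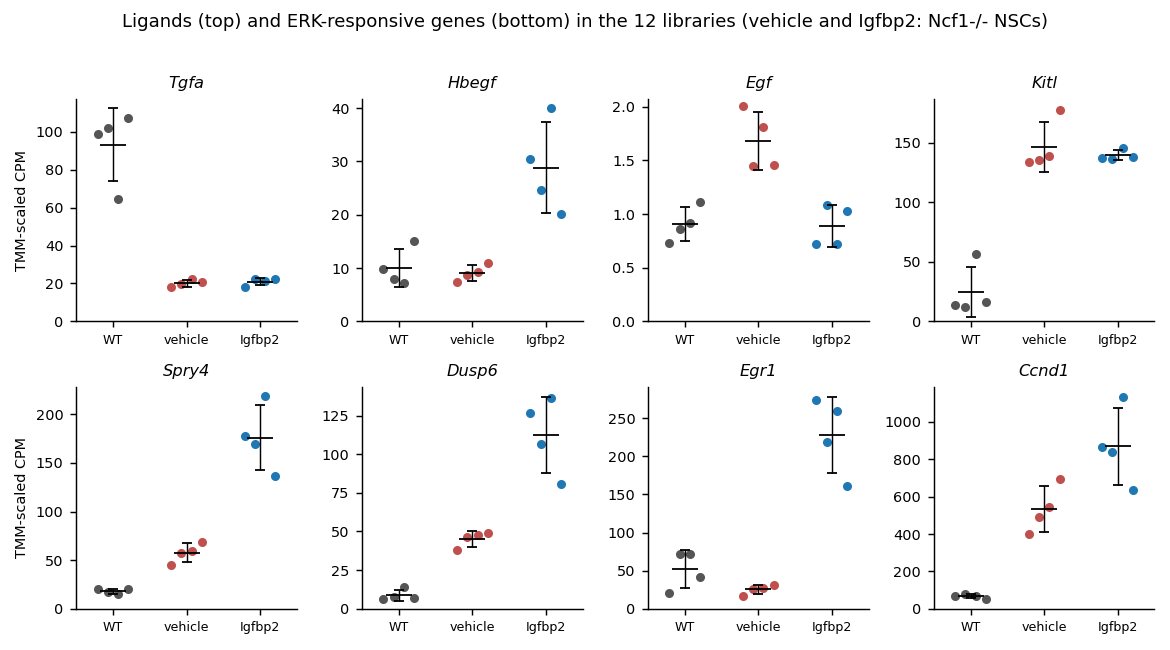
Expression as TMM-scaled CPM (vertical axes, linear, each from 0) of 4 ligands and 4 Erk-responsive genes in the 4 libraries of each group (points), with the mean and SD (horizontal and vertical bars). *Tgfa* is lower and *Kitl* higher in all *Ncf1*-/- libraries than in WT, and *Hbegf*, *Spry4*, *Dusp6* and *Egr1* are higher with Igfbp2 than with vehicle in every library.

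Other receptors of the same classes were tested where expressed. *Pdgfra*, which marks oligodendrocyte precursors, measured 173 to 433 CPM in WT and 68.2 to 72.5 CPM in vehicle-treated cultures and fell (-2.01, SE 0.25, adjusted p = 1.63e-05 by edgeR). *Pdgfrb*, a receptor of pericytes and mesenchymal cells, measured 4.88 to 23.5 CPM and 0.177 to 0.485 CPM and fell as well (-5.36, SE 0.50, adjusted p = 1.91e-06 by edgeR). With Igfbp2 it was at 0.886 to 1.503 CPM, above vehicle (2.02, SE 0.57, adjusted p = 0.023 by edgeR) and below every WT library. Of the mesenchymal and vascular markers, *Pdgfrb* was the only one lower in vehicle-treated than in WT cultures. The 3 others called, *Col1a1* (1.31), *Col1a2* (1.28) and *Acta2* (2.55), were higher. With Igfbp2, 3 of the 5 tested markers were called higher than with vehicle, beside 14.2% of all genes, and 0 lower. Beside *Pdgfrb* these were *Col1a1* (1.05, adjusted p = 0.0361 by edgeR) and *Col1a2* (1.58, adjusted p = 0.00394 by edgeR). *Ntrk3*, the neurotrophin-3 receptor, moved opposite to *Ntrk2* between the genotypes, with 18.1 to 24.6 CPM in WT, 29.0 to 31.6 CPM in vehicle-treated and 37.7 to 44.1 CPM in Igfbp2-treated cultures. It was higher in vehicle-treated than in WT cultures (0.54, SE 0.10, adjusted p = 0.000371 by edgeR) and higher again with Igfbp2 (0.45, SE 0.10, adjusted p = 0.00638 by edgeR), though below 0 on the 3 scales based on TPM. *Fgfr4*, *Mst1r*, *Csf1r* and *Flt3* were filtered out with at most 10 counts in any library.

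The coreceptor genes *Kl* and *Klb* were filtered out with at most 9 counts in any library. Receptor-level inhibitors were reduced, vehicle-treated *Ncf1*-/- against WT, for 8 of 13 tested genes, beside 28.2% of all genes, and higher for 1, beside 28.9%. Their median log2 fold change was -0.44, beside 0.02 for all genes. The latter was *Fgfrl1*, an FGF receptor without a kinase domain, with 42.8 to 129.9 CPM in WT and 135 to 165 CPM in vehicle-treated cultures (1.05, SE 0.28, adjusted p = 0.00607 by edgeR). The phosphatase gene *Ptprj* (-0.999, SE 0.22, adjusted p = 0.00158 by edgeR) and *Cbl*, a ubiquitin ligase gene whose product marks active receptors for degradation (-0.77, SE 0.15, adjusted p = 0.000706 by edgeR), were among those that fell. With Igfbp2, 4 of the 13 rose, beside 14.2% of all genes, and none fell, with a median of 0.16 beside 0.04 for all genes. These were *Ptprj* (0.70, SE 0.22, adjusted p = 0.0335 by edgeR), *Cbl* (0.61, SE 0.15, adjusted p = 0.0128 by edgeR) and, named after their values were seen, *Errfi1*, which encodes an inhibitor of Egfr (0.49, SE 0.11, adjusted p = 0.00878 by edgeR), and the phosphatase gene *Ptpn1* (0.23, SE 0.08, adjusted p = 0.0477 by edgeR). With library totals none of the 4 was called higher, and 1 of the 13 was called lower.

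The adaptors and the Ras-Erk core were reduced, vehicle-treated *Ncf1*-/- against WT, for 12 of 24 genes, beside 28.2% of all genes, and higher for 2, beside 28.9%, with a median log2 fold change of -0.29 beside 0.02 for all genes. The adaptor gene *Shc2* measured 5.62 to 9.28 CPM in WT and 1.89 to 2.87 CPM in vehicle-treated cultures and fell (-1.55, SE 0.18, adjusted p = 1.05e-05 by edgeR). *Nf1*, which encodes the Ras inhibitor neurofibromin, measured 227 to 310.4 CPM and 101 to 161 CPM and fell too (-1.25, SE 0.17, adjusted p = 3.9e-05 by edgeR). The 2 that rose were *Map2k1*, which encodes Mek1 (0.32, SE 0.12, adjusted p = 0.0389 by edgeR), and, named after its values were seen, the adaptor gene *Shc1* (0.66, SE 0.11, adjusted p = 0.000282 by edgeR). The call of *Map2k1* was kept in 8 of 23 alternatives, and was lost without WT replicate 1, 2 or 3, among others. With Igfbp2, 5 of the 24 were higher, beside 14.2% of all genes, and 1 was lower, beside 10.7%, with a median of 0.22 beside 0.04 for all genes, whereas with library totals 0 were higher and 5 lower. Among the 5 with TMM factors were *Map2k1* (0.42, SE 0.12, adjusted p = 0.0267 by edgeR) and *Sos1*, which encodes a Ras activator (0.38, SE 0.12, adjusted p = 0.0346 by edgeR). Both had values below 0 on the 3 scales based on TPM, and their calls were kept in 10 and 8 of 24 alternatives.

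Genes known to respond to Erk were higher in vehicle-treated *Ncf1*-/- than in WT cultures for 10 of 16, beside 28.9% of all genes, and lower for 2 (3 without WT replicate 4), beside 28.2%, with a median log2 fold change of 1.33 beside 0.02 for all genes tested. *Ccnd1*, which encodes cyclin D1, measured 70.2, 78.4, 68.2 and 51.3 CPM in WT and 398, 494, 546 and 692 CPM in vehicle-treated cultures (2.99, SE 0.21, adjusted p = 2.07e-07 by edgeR). *Dusp6*, an Erk phosphatase gene, measured 6.55, 7.50, 13.9 and 6.79 CPM in WT and 37.9, 46.2, 47.5 and 49.1 CPM in vehicle-treated cultures (2.35, SE 0.24, adjusted p = 3.1e-06 by edgeR). The 2 that fell were the immediate early genes *Egr1* (-1.03, SE 0.33, adjusted p = 0.0165 by edgeR) and, named after its values were seen, *Fos* (-1.46, SE 0.34, adjusted p = 0.00263 by edgeR). Genes of the same list thus differed in direction.

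With Igfbp2, 10 of the 16 Erk-responsive genes rose, beside 14.2% of all genes, and none fell, with a median of 0.62 beside 0.04 for all genes. *Egr1* measured 274, 218, 259 and 161 CPM in Igfbp2-treated and 16.6, 26.3, 27.1 and 31.6 CPM in vehicle-treated cultures. Its log2 fold change (3.17, SE 0.35, adjusted p = 0.000397 by edgeR) was the largest on the list and was called in each of 24 alternatives. *Spry4*, a Sprouty inhibitor gene, measured 178, 170.0, 218 and 137 CPM against 44.9, 57.9, 59.0 and 69.1 CPM (1.61, SE 0.16, adjusted p = 0.000359 by edgeR). *Dusp6* (1.32, SE 0.22, adjusted p = 0.00204 by edgeR) and *Ccnd1* (0.71, SE 0.20, adjusted p = 0.0207 by edgeR) rose as well, and *Ccnd1* lost its call with library totals. With library totals, 4 of the 16 were called higher, and with log2(TPM + 0.1) 3 were, while the list's median lay 0.58 and 0.56 above that of all genes.

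The genes whose profile was most like that of a receptor were found by Pearson's r of log2 CPM over the 12 libraries, as a description, since the libraries share the 3 groups. *Egfr* was most like *Chl1* (r = 0.996), a neural cell adhesion gene, and *Iqgap1* (0.991), a scaffold gene, and *Erbb4* most like *Prkca* (0.997), the gene of protein kinase C alpha. *Fgfr2* was most like *Katnal1* (0.996), *Ntrk2* like *Sfxn5* (0.996), *Fgfr3* like *Tspan9* (0.988), *Met* like *Ahcyl2* (0.973), *Kit* like *D8Ertd82e* (0.972), *Fgfr1* like *Tacc1* (0.963) and *Erbb2* like *Prex1* (0.956). Among the receptors themselves, *Fgfr2* and *Erbb4* had an r of 0.966, and *Egfr* and *Erbb4* of -0.815. *Erbb2* and *Fgfr1*, neither called between vehicle-treated and WT cultures, had an r of 0.930.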

How the data were processed

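RNA was sequenced from 12 cultures, 4 per group, after ribosomal RNA depletion. According to the submitters' processing notes, the authors aligned reads with Bowtie2 and estimated expression with RSEM on GRCm38. Versions and the annotation release are not given in the sources used here. The deposited gene files hold the authors' expected counts, TPM and FPKM (the last not used), with transcript lengths. The authors' merged table was used for gene symbols only, since its values are a score (TPM times how many transcripts each gene has).

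The deposited expected counts were rounded (15.9% were not whole) and tested with edgeR 4.0.16 in R 4.3.3 (filterByExpr, TMM factors, quasi-likelihood test, all 12 libraries in one model, Benjamini-Hochberg adjustment over 15706 genes). Alternatives used DESeq2 1.42.0, limma 3.58.1 on log2(TPM + 1) and log2(TPM + 0.1), other scalings and filters, the study's own test on TPM, and each library left out. The code was tested on simulated data. Replicates are cultures of separate pups per the methods. No pair of replicates had counts within sampling noise (lowest chi-square 4.62 per degree of freedom). The vehicle-treated and Igfbp2-treated cultures are paired by animal per the methods. Deviations from the group means correlated between -0.07 and 0.03 in the 4 pairs of the same number and between -0.25 and 0.26 in the 12 others.

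The receptors, the gene lists and the tests were chosen with earlier results of these data known. Genes named from each list are the 2 called genes of largest change with a mean of at least 1 CPM, beside *Egf*, *Fgf2* and those said to be named after their values were seen. Cell type markers were summed by list. Neuronal markers summed to 601 to 772 CPM in WT, 488 to 554 in vehicle-treated and 440.4 to 469 in Igfbp2-treated cultures, and mesenchymal and vascular markers to 10.2 to 24.5, 8.93 to 10.9 and 20.4 to 24.0 CPM. Total counts of 18201622 to 34086554 a library limit precision most for *Erbb3* and *Met*. A few genes that these rules name are not reported here.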

Additional observations from a re-analysis of the deposited data

Results flagged for a closer look

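In 11 of 90 groups of 4 libraries, the highest or lowest library stood apart from the others by more than Dixon's critical value, which chance exceeds in about 1 of 20 groups. WT replicate 3 accounted for 5 of them. It had the highest *Egfr* of its group, at 322 CPM against 148 in the nearest library, the highest *Kitl* at 56.5 against 16.6 CPM and the highest *Dusp6* at 13.9 against 7.50 CPM. It had the lowest *Erbb4*, at 93.4 against 104 CPM, and the lowest *Nf1*, at 227 against 304 CPM. In WT replicate 4, *Map2k1* was highest at 73.7 against 51.1 CPM.

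Among the vehicle-treated cultures, replicate 4 had the highest *Met*, at 2.16 against 1.13 CPM, and the highest *Kitl*, at 178 against 139 CPM. Among the Igfbp2-treated cultures, replicate 1 had the lowest *Fgfr1*, at 241 against 267 CPM, and the lowest *Nf1*, at 121 against 169.6 CPM, and replicate 3 had the highest *Kitl*, at 146 against 138 CPM.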

How the results depend on the processing

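Of 694 alternative values for single receptors, 568 kept direction and call, 88 lost the call, 13 gained it and 25 changed direction. Where a change is given here, its cause was not tested. In vehicle-treated *Ncf1*-/- against WT, 7 receptors and 43 pathway genes were called, against 3 and 15 by the test of the study, run on TPM, 18 pathway genes with a log2 fold change of at least 1, and 7 to 9 and 41 to 47 with 1 library left out. The receptors that lost their call by the test of the study were *Egfr*, *Erbb3*, *Fgfr3* and *Kit*. In Igfbp2-treated against WT, 8 and 44 were called, against 4 and 19 with a log2 fold change of at least 1, 5 receptors by the test of the study, and 7 to 10 and 42 to 46 with 1 library left out.

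In Igfbp2 against vehicle, 6 receptors and 25 pathway genes were called, against 2 and 8 at an adjusted p under 0.01, 1 and 6 with a log2 fold change of at least 1, and 1 and 13 with library totals. On TPM, the test of the study called 0 receptors, as did limma with a pseudocount of 1 or 0.1, also 0 at an unadjusted p under 0.05 by each, against 6 with DESeq2. The same 3 tests called 4, 15 and 16 pathway genes. Totals without the 5 structural RNA genes, an alternative chosen after seeing the data, gave 3 and 16. With 1 library left out the range was 2 to 8 and 11 to 30, and each *Ncf1*-/- library but vehicle-treated replicate 4 moved the receptor count by over 1.5 times, to 2 or 3. Over the 8 *Ncf1*-/- libraries alone, 8 receptors and 32 pathway genes were called, *Egfr* and *Erbb2* being the added receptors, and 8 and 34 with the culture pair as a replicate block, so the block itself changed the call of no receptor.

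Log2 fold changes that turned direction follow. In Igfbp2 against vehicle, the 3 scales based on TPM, in the order given above, gave *Egfr* -0.0025, -0.014 and -0.015, *Erbb3* -0.27, -0.032 and -0.17, *Erbb4* -0.059, -0.056 and -0.087, and *Kit* -0.036, -0.059 and -0.13. *Erbb3* also had -0.14 with library totals, -0.062 with totals without structural RNA and -0.090 to 0.19 with 1 library left out, below 0 without Igfbp2-treated replicate 2. In Igfbp2-treated against WT the same scales gave *Erbb2* -0.27, -0.13 and -0.13 and *Fgfr1* -0.090, -0.051 and -0.052. *Erbb2* ranged from -0.038 to 0.45 with 1 library left out, below 0 without WT replicate 1 and without WT replicate 2 (-0.00715). In vehicle-treated against WT, *Fgfr1* had 0.012 with library totals and 0.0047 with totals without structural RNA.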
